A study of Mus musculus with 4 samples.

Results

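Immunoglobulin heavy chain variable (Ighv) genes were followed across the B-lineage cells of mouse tibia. Their members are all genes of the deposited count matrix whose symbol begins with Ighv and that had at least 1 UMI (unique molecular identifier, a counted RNA molecule): 79 of 185 Ighv features, in a matrix of 31053 genes. Droplet RNA libraries were made from cells released with enzymes from both ends of the tibia, proximal and distal, at 8 weeks of age. The 4 sample records share every label: Col10a1Cre, Rosa26-Tdtomato, Irx3 +/Δ and Irx5 +/- (called the Irx3/5 heterozygous control), and no PTH (parathyroid hormone). Col10a1 is a gene of hypertrophic chondrocytes, so the Cre and the reporter it activates mark that lineage and not B cells. The records are pooled in 1 matrix whose barcodes all carry the same suffix, and no file assigns a cell to an animal or a record. Whether these 4 come from different animals or are repeat runs of a single library is not given. All values therefore describe 1 pooled matrix without a test between samples. Intervals are given at 95% and cover counting error only.

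An antibody heavy chain is made from a V, a D and a J segment that are cut and joined in the DNA of each developing B cell. The Rag1 and Rag2 proteins make the cuts, first between D and J and then between V and DJ, in pro-B cells. A promoter stands before each V segment, and after joining the chosen V exon is spliced through J to a constant region such as Ighm, Ighd, Igha or an Ighg gene. Allelic exclusion lets a B cell keep a single working heavy chain, and plasma cells, the antibody-secreting end stage, transcribe it at very high levels. Long-lived plasma cells live in bone marrow, which is also where B cells form.

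All 185 features were found in the GENCODE M21 annotation of GRCm38, which is the same build as the mm10 the submitters name. They lie on chromosome 12 between 113572927 and 116010093, a span of 2.44 Mb, and 183 of them are on the minus strand. The D segments lie beyond the lower end, where the families Ighv2 and Ighv5 are found, and Ighv1 and Ighv8 make up the distal part. Of the 113 features annotated as V genes 72 had a UMI, of 70 V pseudogenes 7 had one, and the other 2 features, of the type IG_LV_gene, had 0. The 106 features with 0 UMIs are not members. Of the 79 members, 17 had a single UMI, 40 had 2 to 9 and 22 had at least 10.

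The sequences below show where a V segment meets D, and how alike the members are. Each is the last 50 bases of the annotated V exon in the coding sequence, 5′ to 3′, taken from the GENCODE M21 transcripts (GRCm38, minus strand), with the codon of the conserved cysteine before the junction in capitals. They are the 10 members with the most UMIs in plasma cells and 3 more (Ighv1-50, Ighv1-62-2 and Ighv1-5) that were found in 2 plasma cells with the same light chain gene.
Ighv1-75: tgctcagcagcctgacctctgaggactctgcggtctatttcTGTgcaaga
Ighv9-3: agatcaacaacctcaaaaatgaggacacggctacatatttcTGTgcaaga
Ighv9-2: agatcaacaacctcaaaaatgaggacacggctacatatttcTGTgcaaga
Ighv1-9: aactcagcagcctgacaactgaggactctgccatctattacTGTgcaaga
Ighv1-64: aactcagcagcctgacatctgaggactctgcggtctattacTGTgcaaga
Ighv1-50: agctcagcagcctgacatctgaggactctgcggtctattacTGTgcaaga
Ighv1-62-2: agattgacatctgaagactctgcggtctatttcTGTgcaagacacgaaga
Ighv1-81: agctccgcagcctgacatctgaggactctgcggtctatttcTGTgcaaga
Ighv1-5: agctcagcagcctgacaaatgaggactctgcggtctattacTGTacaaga
Ighv1-18: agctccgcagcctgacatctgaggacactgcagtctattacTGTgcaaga
Ighv1-74: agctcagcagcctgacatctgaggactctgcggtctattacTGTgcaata
Ighv1-12: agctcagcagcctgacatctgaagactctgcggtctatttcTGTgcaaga
Ighv5-17: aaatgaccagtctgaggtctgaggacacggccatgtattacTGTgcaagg

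These stretches lie at chr12:115833950-115833999 for Ighv1-75, chr12:114140692-114140741 for Ighv9-3 and chr12:114109001-114109050 for Ighv9-2. Ighv1-9 is read at chr12:114583569-114583618, Ighv1-64 at chr12:115507545-115507594 and Ighv1-50 at chr12:115119748-115119797. Ighv1-62-2 is at chr12:115446409-115446458, Ighv1-81 at chr12:115920279-115920328, Ighv1-5 at chr12:114513330-114513379 and Ighv5-17 at chr12:113859149-113859198. Ighv1-18 is at chr12:114682632-114682681, Ighv1-74 at chr12:115802648-115802697 and Ighv1-12 at chr12:114615850-114615899. Ighv9-3 and Ighv9-2 had 0 mismatches over these 50 bases, and Ighv1-64 and Ighv1-50 had 1. Across the last 250 bases of its transcript Ighv9-3 was 94.8% identical to its nearest member, and Ighv1-75 was 96.0% identical to Ighv1-84. Of the 90-base windows of Ighv9-3, Ighv9-2, Ighv1-9, Ighv1-64, Ighv1-81, Ighv1-5, Ighv1-12 and Ighv5-17, 100% occurred in no other annotated Ighv transcript. Reads of that length that match the annotation exactly could thus be told apart, and reads that differ from it were not tested. The share of such windows was 98.1% in Ighv1-18, 97.7% in Ighv1-74, 81.0% in Ighv1-75 and 77.4% in Ighv1-50. In Ighv1-62-2 the last 250 bases are 100% identical to those of Ighv1-71, which had 0 UMIs, and 9.34% of its windows were its own, so its counts are uncertain and may belong to either gene. Among the 72 V genes with a UMI the median share of such windows was 100%, and among the 41 without it was 96.9%.

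The matrix held 90273806 UMIs over 15014 barcodes. After filters on depth, genes and mitochondrial UMIs and removal of 522 predicted doublets, 10485 cells remained, with a median of 4855 UMIs. Cells were put into classes by UMIs of genes other than Ighv: pro-B and large pre-B cells by Igll1 and Vpreb1 (the surrogate light chain), small pre-B cells by Rag1 or Il2ra, immature B cells by Ms4a1, mature B cells by Ighd, and plasma cells by Jchain. The labels of the classes were checked against genes outside these gates. The plasma class led in Tnfrsf17 (205 CPM, counts per 1000000 UMIs, against at most 0.149 in the other 4 classes) and Xbp1 (1484 against at most 98.3 CPM), and the pro-B and large pre-B class in Dntt (288 CPM) and Vpreb2 (138 CPM). Fcer2a was highest in mature B cells with 98.6 CPM, but immature B cells had 77.3 CPM, and 28.8% of the mature class had a UMI of Rag1 or Il2ra, genes of earlier stages. Some genes did not follow the labels. Cd93, a marker of immature B cells, was lowest of the 4 earlier classes in the immature class (87.6 CPM, against 115 in mature and 231 CPM in small pre-B cells). Il7r, a receptor of pro-B cells, was higher in small pre-B (576 CPM) than in pro-B and large pre-B cells (377 CPM). Irf4, a transcription factor of plasma cells, was lower in plasma cells (147 CPM) than in the other 4 classes (219 to 379 CPM). Mki67, a gene of dividing cells, was highest in pro-B and large pre-B cells (842 CPM) and lower in immature B cells (208 CPM). It stood at 649 CPM in small pre-B and 480 CPM in mature B cells, found in 29.1% and 21.5% of them. Non-B cells had 525 CPM. The immature name thus rests on the gate itself, and the small pre-B and mature classes cannot be read as resting cells only. S100a8, a neutrophil gene, reached 12038 CPM in mature and 14179 CPM in immature B cells, against 48147 CPM in non-B cells and 220 CPM in plasma cells. Leaving out the B-class cells rich in neutrophil or haemoglobin UMIs, between 3.47% and 10.01% of each class, kept the share of cells with an Ighv UMI between 2.54% and 4.33% in the 4 classes before plasma cells, and gave 93.8% in plasma cells.

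Plasma cells held most of the Ighv RNA. They were 50 of the 10485 kept cells (0.477%) and carried 433 of the 599 Ighv UMIs in kept cells (72.3%). Their summed level was 474 CPM (exact Poisson interval 430 to 521). Each of the other B-lineage classes lay between 3.43 and 10.3 CPM. The plasma level was 45.9 times that of immature B cells and 126 times that of pro-B and large pre-B cells. Immunoglobulin transcripts make up much of a plasma cell's RNA, and with these left out of the total the plasma level was 988 CPM.

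An Ighv UMI was found in 45 of 50 plasma cells (90%, exact Clopper-Pearson interval 78.2% to 96.7%), at a median depth of 17562 UMIs. It was found in 24 of 576 pro-B and large pre-B cells (4.17%, interval 2.69% to 6.14%), at a median depth of 9969 UMIs. The share was 37 of 1452 small pre-B cells (2.55%, interval 1.80% to 3.50%; median depth 2997 UMIs). It was 28 of 612 immature B cells (4.58%, interval 3.06% to 6.54%; median depth 2885 UMIs) and 30 of 789 mature B cells (3.80%, interval 2.58% to 5.38%; median depth 3173 UMIs). The intervals of these 4 classes overlap, and plasma cells stand far above them. In non-B cells, which should lack a joined heavy chain gene, it was 12 of 5345 cells (0.225%, interval 0.116% to 0.392%) at a median depth of 5320 UMIs.

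Depth differs between the classes, so each cell was also thinned to 1000 UMIs. Of 49 plasma cells deep enough, 14 kept an Ighv UMI (28.6%, interval 16.6% to 43.3%). Immature B cells kept 1.16% (7 of 604, interval 0.467% to 2.37%), mature B cells 1.02% (8 of 788, interval 0.439% to 1.99%) and small pre-B cells 0.487% (7 of 1436, interval 0.196% to 1.002%). Pro-B and large pre-B cells kept 0.174% (1 of 574, interval 0.00441% to 0.967%) and non-B cells 0.0204% (1 of 4910). The pro-B value rests on 1 cell, and thinning to 500 UMIs gave 0.521% (3 of 576) and to 2000 UMIs 0.891% (5 of 561). The thinned numbers outside plasma cells come from 8 cells or fewer per class and do not order those classes. Thinning left out 1 plasma cell, 2 pro-B and large pre-B, 16 small pre-B, 8 immature B, 1 mature B and 435 non-B cells as too shallow.

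**Figure D1:**
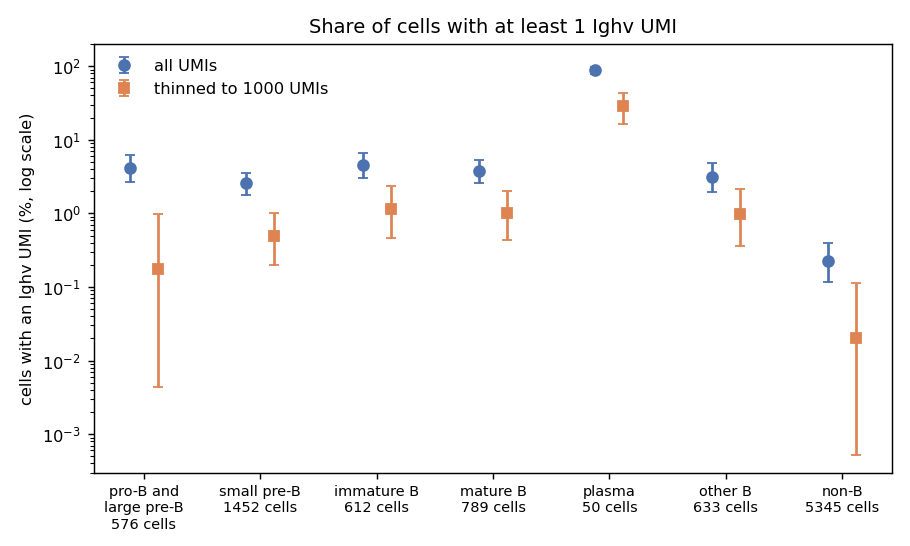
Share of cells with at least 1 Ighv UMI (%, log axis) in each class, from all UMIs (circles) and after thinning each cell to 1000 UMIs (squares); bars are exact 95% binomial intervals. Plasma cells sit at 90% and 28.6%, the other B classes between 2.55% and 4.58% before thinning, and non-B cells at 0.225% and 0.0204%.

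Set against the constant-region RNA of the same cells, the classes lay closer together. Plasma cells had 2.64 Ighv UMIs per 1000 heavy chain constant UMIs (interval 2.40 to 2.90). Immature B cells had 2.32 (1.56 to 3.34), mature B cells 1.76 (1.20 to 2.50), pro-B and large pre-B cells 1.37 (0.902 to 1.99) and small pre-B cells 1.23 (0.887 to 1.65). Non-B cells, with 12 Ighv and 4373 constant UMIs, had 2.74 (1.42 to 4.79). That interval overlaps those of all these classes, so the ratio does not set the B lineage apart from non-B cells. The plasma interval overlaps those of immature and mature B cells and lies above those of both earlier classes. Early B cells are also known to transcribe Ighm without a joined V gene, and the part of such transcripts in these values was not tested. The V exon stands at the 5′ end of the heavy chain transcript and the constant exons at its 3′ end. The barcode list of a second deposited matrix has 6794880 entries, the length of the list for the kit that reads transcripts from the 3′ end, and the labels do not name the kit.

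Plasma cells with enough Ighv UMIs to tell were each dominated by 1 Ighv gene. Of the 42 plasma cells with at least 2 Ighv UMIs, all 42 had a gene with more than 0.5 of them (100%, interval 91.6% to 100%), and in 39 of these every Ighv UMI came from that gene. Of the other 8 plasma cells, 5 had no Ighv UMI and 3 had 1. Over all plasma cells 425 of 433 Ighv UMIs (98.2%) belonged to the leading gene of their cell. The counts per cell ran from 0 to 33, with a median of 6, and 15 cells with at least 10 UMIs held 67.2% of them.

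The cell with the most Ighv UMIs had 33, all from Ighv1-75, beside 5462 Igha UMIs. The next had 32 UMIs, all from Ighv9-3, and the third 27 from Ighv9-2 and 1 from Ighv1-55. A cell with 26 UMIs of Ighv1-9, a cell with 23 of Ighv1-74, a second Ighv1-75 cell with 22 and an Ighv5-17 cell with 22 followed, and none of these 4 had another Ighv gene. All 7 of these cells were IgA cells. The 3 remaining cells of the first 10 were an Ighg2b cell with 15 UMIs of Ighv1-12, an Igha cell with 15 of Ighv14-3 and an Ighg2c cell with 14 of Ighv1-78. The last of these places was tied, since the leading Ighv1-50 cell and the Ighv2-9-1 cell also had 14 Ighv UMIs.

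Another gene appeared in 3 plasma cells. Apart from the cell with Ighv9-2 and 1 UMI of Ighv1-55, an Igha cell had 8 UMIs of Ighv2-9-1, 5 of the pseudogene Ighv1-60 and 1 of Ighv1-61. The last had 2 UMIs of Ighv9-4 and 1 of Ighv3-6. The Ighv2-9-1 cell is the only plasma cell with 2 or more UMIs of a gene other than its leading one. Its 5 Ighv1-60 UMIs are all of that pseudogene's UMIs in the matrix.

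**Figure D2:**
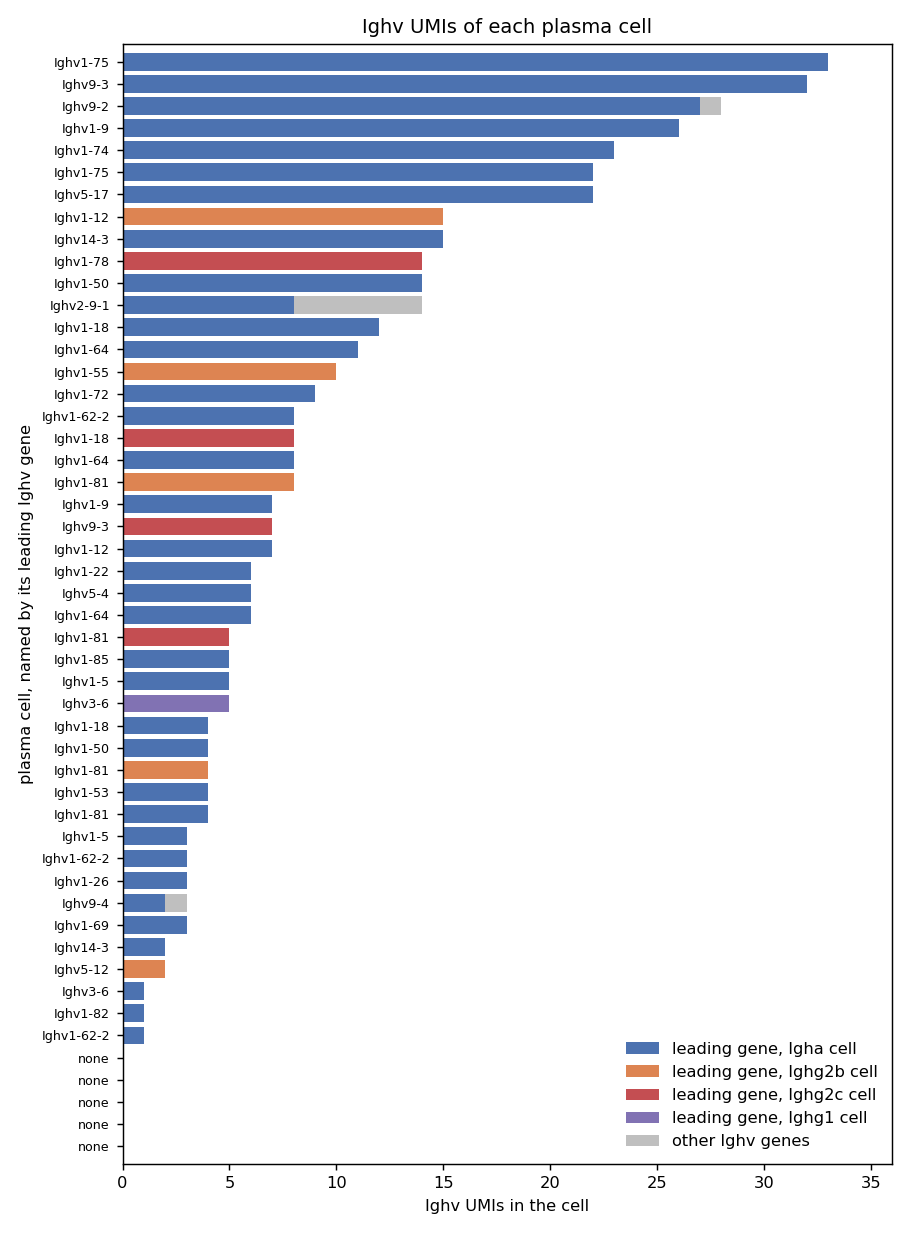
Ighv UMIs of each of the 50 plasma cells, 1 bar per cell named by its leading Ighv gene and coloured by the heavy chain constant gene with the most UMIs, with UMIs of other Ighv genes in grey. Grey parts appear in 3 cells only, and 5 cells have no Ighv UMI.

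The leading genes were spread widely. The 45 plasma cells with an Ighv UMI were led by 28 genes, 16 of them in a single cell each and 12 in 2 or more cells. Ighv1-81 led 4 cells with 8, 5, 4 and 4 UMIs, and Ighv1-18 led 3 cells with 12, 8 and 4 UMIs. Ighv1-64 also led 3 cells, with 11, 8 and 6 UMIs, and Ighv1-62-2 led 3 with 8, 3 and 1. Ighv1-26 led 1 cell with 3 UMIs. Among the genes that led a single cell, Ighv1-55 had 10 UMIs in an Ighg2b cell and Ighv1-72 had 9 in an Igha cell. Ighv1-22 and Ighv5-4 had 6 each in Igha cells. By family, Ighv1 led 33 of the 45 cells, Ighv9 led 4, Ighv5 led 3, Ighv3 and Ighv14 led 2 each, and Ighv2 led 1.

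Several cells shared both the heavy and the light chain V gene. The light chain gene was taken as the Igkv gene with the most UMIs, at least 2 and without a tie. Ighv1-64 with Igkv5-48 was found in 2 Igha cells, with 11 and 8 Ighv UMIs and 7 and 13 Igkv UMIs. Ighv1-50 with a shared gene of the Igkv1 family was found in 2 Igha cells (14 and 4 Ighv UMIs, 19 and 8 Igkv UMIs). Ighv1-5 with Igkv6-17 was found in 2 Igha cells (5 and 3 Ighv UMIs, 8 and 10 Igkv UMIs), and Ighv1-62-2 with Igkv8-24 in 2 more (8 and 3, 15 and 23). The fifth combination, Ighv1-81 with another Igkv1 gene, was found in 2 Ighg2b cells (8 and 4 Ighv UMIs, 19 and 26 Igkv UMIs). In each of the 5 combinations both cells also had the same constant gene. Ighv1-50 and Ighv1-62-2 are described because of these pairs, after their values were seen.

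Of 16 pairs of plasma cells with the same leading Ighv gene and a leading Igkv gene in both cells, 5 shared the Igkv gene (31.3%). Of 650 pairs with different Ighv genes 14 did (2.15%). The same constant gene was shared by 8 of the 16 pairs and 382 of the 650 (50% and 58.8%). Pairs share cells and are not independent, so these shares are a description. A further 324 pairs lacked a leading Igkv gene in at least 1 cell. The barcodes of the 5 pairs differ at 12 or more of 16 bases, and no 2 plasma barcodes differ at fewer than 4. The files hold no junction sequence, no file says whether the cells of a pair come from the same animal, and whether they descend from the same B cell was not tested.

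Other pairs shared the heavy chain gene and little else. The 2 Ighv9-3 cells were an Igha cell with Igkv8-24 and an Ighg2c cell with Igkv4-57-1. Both Ighv1-9 cells were Igha cells, with a gene of the Igkv1 family and with Igkv8-27. The 3 Ighv1-18 cells, 2 Igha cells and an Ighg2c cell, had 3 different Igkv genes.

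A few plasma cells had little kappa light chain. The Ighv1-85 cell, with 5 UMIs of that gene, had 0 Igkc and 39 Iglv1 UMIs (a lambda light chain V gene). An Ighv1-64 cell with 6 UMIs had 2 Igkc and 11 Iglv1 UMIs, and the second Ighv1-75 cell had 192 Igkc and 45 Iglv1 UMIs, where the first had 7279 and 4. The 2 cells with the most UMIs of Ighv1-75 therefore differ in their light chain RNA. These cells were picked after their values were seen.

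By constant region, 39 plasma cells were led by Igha, 6 by Ighg2b, 4 by Ighg2c and 1 by Ighg1. Igha cells had a median of 6 Ighv UMIs (0 to 33) and the 11 Ighg cells a median of 7 (highest 15). An Ighv UMI was found in 35 of 39 Igha cells (89.7%, interval 75.8% to 97.1%) and in 10 of 11 Ighg cells (90.9%, interval 58.7% to 99.8%). Per 1000 UMIs of their leading constant gene, Igha cells had 2.55 Ighv UMIs (interval 2.29 to 2.83) and Ighg cells 3.24 (interval 2.56 to 4.04), so the intervals overlap. Of the 25 leading genes of Igha cells and the 8 of Ighg cells, 5 were the same. The 5 plasma cells with 0 Ighv UMIs were 4 Igha cells with 4838, 4541, 1470 and 1421 Igha UMIs and an Ighg2b cell with 486. Across the 50 cells Ighv UMIs and UMIs of the leading constant gene had a Spearman rho of 0.56, and Ighv and total UMIs one of 0.35. The points share the library and each cell's depth.

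**Figure D3:**
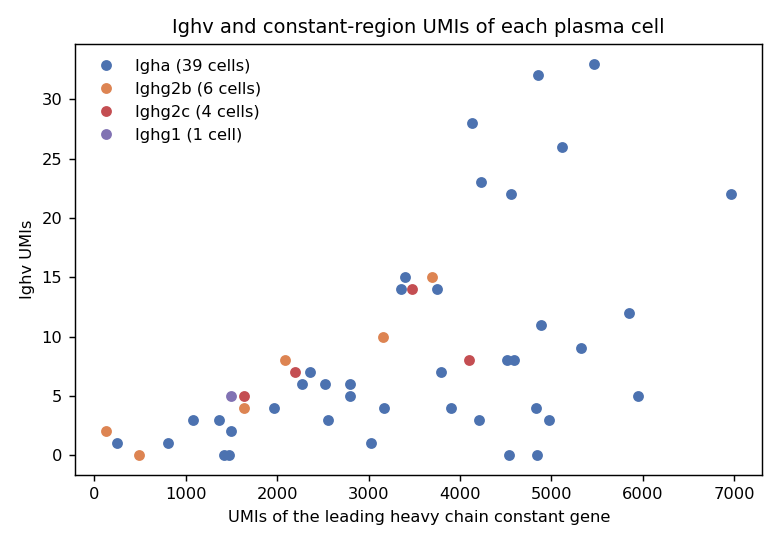
Ighv UMIs against UMIs of the leading heavy chain constant gene in each of the 50 plasma cells, both on linear axes, coloured by constant gene. Igha cells with 4838 and 5462 constant UMIs had 0 and 33 Ighv UMIs, and the 11 Ighg cells have 0 to 15 Ighv UMIs, within the 0 to 33 of the Igha cells.

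Dominance could hardly be measured before the plasma stage. Among the 4062 other B-lineage cells (these 4 classes and 633 B cells in no class) 139 had an Ighv UMI and 9 had at least 2. Of the 5 small pre-B cells with at least 2, a cell with 3 UMIs of Ighv9-3 and a cell with 2 of Ighv6-6 had a dominant gene, while the other 3 had 1 UMI each of 2 genes. One of the 2 such pro-B and large pre-B cells had 2 UMIs of Ighv1-5 and 1 of Ighv9-3, and the other 1 UMI each of Ighv9-3 and Ighv1-54. The immature B cell had 2 UMIs of Ighv3-6 and the mature B cell 2 of Ighv5-4. The interval of the small pre-B share of 40.0% (5.27% to 85.3%, 5 cells) lies below the plasma interval. Those of the other 3 classes, from 1 or 2 cells each, overlap it. The shares are not alike in depth: a cell with 2 UMIs fails the rule when these come from 2 genes, while plasma cells had a median of 6. With at least 3 UMIs required, the small pre-B share was 100%, from 1 cell. No difference in dominance is read from these intervals.

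The Ighv UMIs of the earlier classes were spread over many genes with few UMIs each. The 150 UMIs of the 4062 cells came from 59 genes. Of the 30 genes seen in plasma cells 24 were also seen there (80.0% of the plasma genes, 40.7% of the 59). Of all 79 members 59 were seen there and 30 in plasma cells. The overlap is thus near that of any members, and nothing is read from it. In the 4062 cells Ighv8-8 had the most with 10 UMIs, and it had 0 in the 50 plasma cells. Of the 10, 2 were in pro-B and large pre-B, 2 in small pre-B, 1 in immature, 3 in mature and 2 in other B-lineage cells. Ighv1-36 had 3 UMIs, all in pro-B and large pre-B cells, and Ighv4-1 had 4, 3 in small pre-B and 1 in immature B cells. Of the genes that lead plasma cells, Ighv9-3 had 7 UMIs here, 3 of them in the small pre-B cell named above, and Ighv5-4 also had 7, 3 in mature, 2 in immature and 1 each in pro-B and large pre-B and small pre-B cells. Ighv3-6 had 5, 3 in immature and 2 in mature B cells. Ighv1-75, the leading gene of the plasma class, had 4, all in mature B cells. Ighv6-6 had 4 and no plasma UMI. Ighv8-8, Ighv1-36 and Ighv4-1 were singled out after their values were seen. Ighv5-2, the D-proximal gene long known as VH81X for its early rearrangement, had 3 UMIs, 1 each in the pro-B and large pre-B, small pre-B and immature B classes. Ighv6-3 also had 3 UMIs outside plasma cells and Ighv12-3 had 2, both in small pre-B cells. Ighv5-6 and Ighv11-2 had 0 UMIs, which allows up to 0.0415 CPM over all kept cells.

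The next comparison asked where on the locus the genes in use lie. Among V genes annotated as not pseudogenes, 19 of 113 (16.8%) are in the D-proximal families Ighv2 and Ighv5 and 62 (54.9%) in Ighv1 and Ighv8. In plasma cells with an Ighv UMI, 4 of 45 (8.89%, interval 2.48% to 21.2%) had a gene of Ighv2 or Ighv5 and 35 of 45 (77.8%, interval 62.9% to 88.8%) a gene of Ighv1 or Ighv8. In the 139 other B-lineage cells with a UMI these shares were 18.0% (25 cells, interval 11.99% to 25.4%) and 57.6% (80 cells, interval 48.9% to 65.9%). The intervals overlap for both pairs of families. A cell was counted here for any UMI of a family: by leading gene, Ighv1 had 33 of the 45 plasma cells and Ighv8 had 0. The intervals treat cells as independent. The 10 plasma cells in the 5 shared Ighv and Igkv combinations were all led by Ighv1 genes, and whether they are independent was not tested. Within the earlier stages, 12 of 61 pro-B and pre-B cells (19.7%, interval 10.6% to 31.8%) and 10 of 58 immature and mature B cells (17.2%, interval 8.59% to 29.4%) had an Ighv2 or Ighv5 UMI. Among cells with a dominant gene, 4 of 42 plasma cells (9.52%, interval 2.66% to 22.6%) had one from these families.

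Several families had UMIs in the B lineage but none in plasma cells. Ighv8, with 12 UMIs in other B-lineage cells, had 0 in plasma cells, as had Ighv6 with 7, Ighv10 with 6, Ighv4 with 4, and Ighv7 and Ighv12 with 2 each. A count of 0 allows up to 3.28 CPM in the plasma class, and each of the 45 plasma cells mostly samples a single gene. Ighv9 had 68 plasma UMIs and 8 UMIs elsewhere in the B lineage, but 32 and 27 of the 68 came from single cells. By cells it was found in 4 of the 45 plasma cells and in 6 of the 139 other B-lineage cells with a UMI. In the first Mb from the D-proximal end lie 55 of the 113 V genes, and it held the leading gene of 14 of 45 plasma cells and of 60 of the 135 other B-lineage cells with a single leading gene. In 4 more B-lineage cells the genes were tied.

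**Figure D4:**
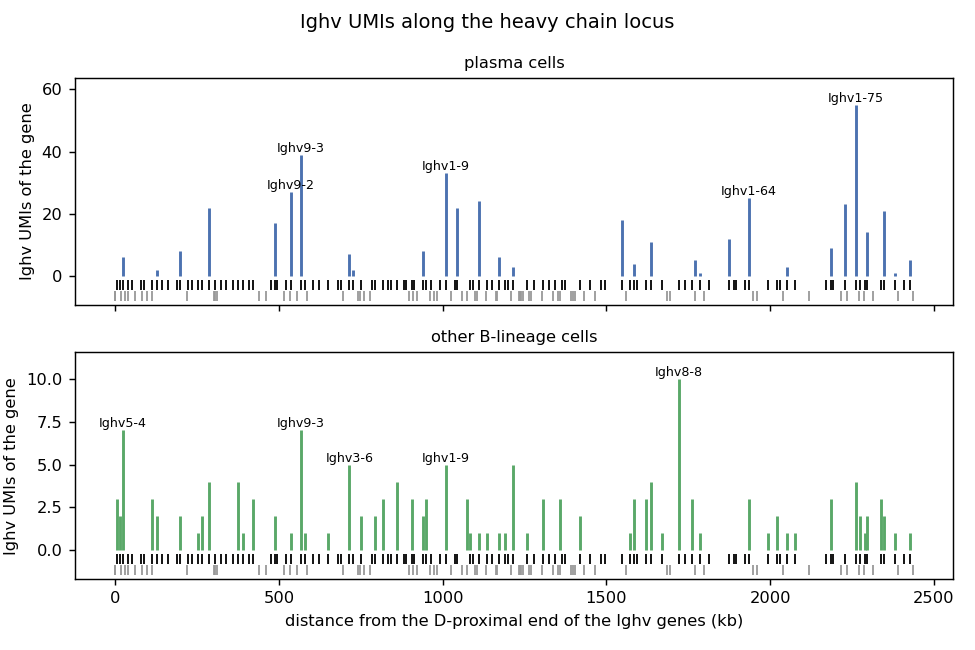
UMIs of each Ighv gene (vertical lines) against its distance from the D-proximal end of the Ighv genes in kb, for plasma cells (top) and other B-lineage cells (bottom, another scale). Ticks below mark annotated V genes (black) and V pseudogenes (grey). Plasma UMIs stand in few tall lines, led by Ighv1-75 with 55, and those of other B-lineage cells in many low ones, led by Ighv8-8 with 10.

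RNA set free by broken cells can enter any droplet, and Igha and Jchain, which plasma cells make in large amounts, give a scale for it. Igha had 139375 UMIs in plasma cells (152534 CPM) and 1063 in non-B cells (29.8 CPM), where 16.9% of cells had one. Scaled by Igha, plasma RNA would carry 3.30 Ighv UMIs into the non-B cells, and scaled by Jchain 2.28. Counted there were 12 (exact Poisson interval 6.20 to 20.96). Free RNA of the other B-lineage cells, scaled by Ighm, would add 4.94. The sum with the Igha value is 8.24, inside the interval for all non-B cells together. The groups differed. In the neutrophil-rich cells Igha gave 1.46 and Ighm 1.83, against 10 counted, with 4.80 as the lower end of the interval. In erythroid cells they gave 0.777 and 0.394 against 1 counted, and in T or NK cells 0.252 and 0.459 against 0. In the rest of the non-B cells they gave 0.817 and 2.25 against 1.

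In the B classes the plasma RNA that Igha predicts is a small part of the count. It would give 0.519 Ighv UMIs in pro-B and large pre-B cells, where 27 were counted (interval 17.8 to 39.3). For small pre-B cells the values were 1.08 against 43 (interval 31.1 to 57.9). For immature B cells they were 0.516 against 29 and for mature B cells 0.516 against 31. Igha itself had a UMI in 17.2% to 24.8% of the cells of these 4 classes.

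**Figure D5:**
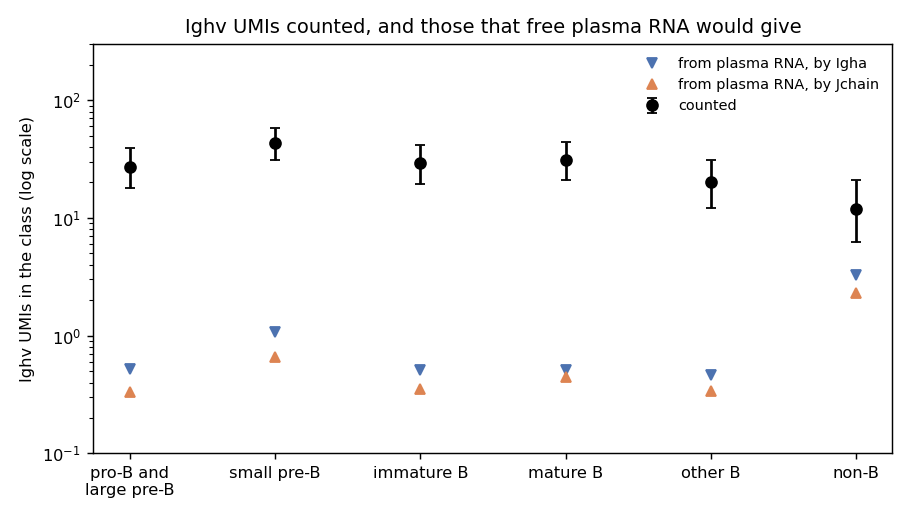
Ighv UMIs counted in each class (black, exact 95% Poisson interval) and those that free plasma RNA would give when scaled by Igha or Jchain UMIs (triangles), on a log axis. Counts in the B classes lie between 20 and 43 against predictions of at most 1.08, and the non-B count of 12 lies above its predictions of 3.30 and 2.28.

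Of the 7 genes seen in non-B cells 2 were also seen in plasma cells. Of all 79 members 30 were seen in plasma cells, and of the 59 genes of the other B-lineage cells 24 were. With 7 genes no difference is read from these overlaps. The 10 genes with the most plasma UMIs held 67.2% of the plasma Ighv UMIs and 2 of the 12 non-B UMIs (16.7%, interval 2.09% to 48.4%). Both were Ighv1-64 UMIs, and Ighv1-75, with 55 UMIs in plasma cells, had 0. These 10 genes were chosen by their plasma UMIs, so their share in plasma cells is high by choice. In the B classes before plasma cells they held between 11.6% (small pre-B) and 24.1% (immature B) of the Ighv UMIs. The non-B share lies within that range and does not set non-B cells apart from these classes. Of the 12 UMIs, 9 came from genes with 0 plasma UMIs: the pseudogenes Ighv8-10 with 3, Ighv1-41 with 2 and Ighv1-73 with 2, and Ighv1-63 and Ighv8-12 with 1 each. Ighv8-10, Ighv1-73 and Ighv1-63 also had 0 UMIs in the other B-lineage cells, where Ighv1-41 had 3 and Ighv8-12 had 1. Pseudogenes, which carry defects that prevent a working chain, gave 7 of the 12 non-B UMIs (58.3%, interval 27.7% to 84.8%). They gave 5 of 433 in plasma cells (1.155%, interval 0.376% to 2.67%) and 6 of 150 in the other B-lineage cells (4.00%, interval 1.48% to 8.50%). By non-B group, 10 of the 12 UMIs lay in the 2380 neutrophil-rich cells (0.420%, interval 0.202% to 0.771%), including all 7 pseudogene UMIs. The 1275 erythroid cells had 1 and the 330 T or NK cells 0, which allows up to 3 counts, and Igha stood at 28.7, 29.1 and 25.8 CPM in these 3 groups. These pseudogenes, Ighv1-63 and Ighv8-12 were named after their values were seen, and the source of the UMIs was not tested.

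Other genes of the pathway were compared by a rule of size, since 1 pooled matrix allows no test: at least 2 times the CPM of all other kept cells, or at most 0.5 times, among genes with at least 20 UMIs. In plasma cells 7.08% of all genes were higher and 55.0% lower by this rule. Of the 7488 lower genes 2378 (31.8%) would have had at most 3 plasma UMIs at the level of the other cells, where so few UMIs cannot show a difference. Of 24 pathway genes tested outside the gates 14 were higher, 6 lower and 4 within these limits. Ighe, with 1 UMI in the other cells, and Tnfrsf17, with 7, reached 20 UMIs through plasma cells only and had to be higher. Without them 12 of 22 were higher and 6 lower. Constant regions were higher: Igha (152534 against 32.3 CPM), Ighg2c (12543 against 3.29 CPM), Ighg2b (12452 against 3.74 CPM) and the kappa chain Igkc (251675 against 522 CPM). Xbp1 and Prdm1, transcription factors of secreting cells, were higher (1484 against 78.3 CPM and 103 against 4.41 CPM), and the surface receptor Tnfrsf17 stood at 205 against 0.0980 CPM. Ighm was lower with 399 against 1397 CPM. Pax5 and Ebf1, which hold the B cell identity, were lower (21.9 against 176 CPM and 143 against 708 CPM), as were Rag2 and the surrogate light chain genes Vpreb2 and Vpreb3. Dntt, Pou2f2, Pou2af1 and Irf4 stayed within the limits. All 29 Dntt UMIs of the plasma class came from 2.0% of its 50 cells, so the Dntt level does not describe most plasma cells. Among the members only 10 reached 20 UMIs, each through its plasma UMIs, so all 10 had to be higher and nothing is read from the count. Ighv1-75 (55 plasma and 4 other UMIs), Ighv1-74 (23 and 0) and Ighv1-12 (22 and 0) are among them.

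The same rule was applied to the earlier classes, where the cells compared with include the plasma cells. In pro-B and large pre-B cells 9 of 24 were higher and 12 lower, against 21.2% and 21.3% of all genes. Dntt, which adds bases at the V, D and J joints, stood at 288 against 20.6 CPM, Vpreb2 at 138 against 2.66 CPM and Rag2 at 64.0 against 15.4 CPM. In small pre-B cells 11 were higher and 10 lower (16.2% and 18.6% of all genes), and Ighm stood at 5113 against 1004 CPM. Immature B cells had 7 higher and 10 lower (10.9% and 16.4%), and mature B cells 9 higher and 9 lower (10.0% and 16.2%). Igha, Ighg1, Ighg2b, Ighg2c, Ighe, Slpi and Tnfrsf17 were lower in all 4 classes, and the plasma cells hold most of the Igha and Ighg UMIs. Ighe and Tnfrsf17 had enough UMIs to be tested only through the plasma cells, which are among the cells compared with. Nothing is therefore read from the calls of Ighe and Tnfrsf17, which the numbers of lower genes above include. With plasma cells left out of the comparison, a setting chosen after seeing the data, 22 pathway genes could be tested. Then 10 were higher and 5 lower in pro-B and large pre-B cells (21.1% and 21.1% of all genes), and 14 and 3 in small pre-B cells (16.2% and 18.5%). Immature B cells had 10 higher and 4 lower (10.9% and 16.4%) and mature B cells 11 and 3 (10.1% and 16.2%). The number of lower genes was thus smaller by over 1.5 times in each class.

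Of the 10 members tested in the comparison with plasma cells included, 0 were higher in 3 of these classes and 1 in immature B cells. Lower were 10 members in pro-B and large pre-B cells, 8 each in small pre-B and mature B cells, and 6 in immature B cells. Without plasma cells in the comparison 0 members reached 20 UMIs, so nothing is read from these counts either.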

How the data were processed

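The values the authors deposited are UMI counts, untransformed, for each gene in each barcode, and per the file headers come from Cell Ranger 3.1.0; the submitters' processing notes also name Seurat 3 and mm10, with no role. Reads shared by near-identical genes may be missing from the counts, and the labels name no mouse strain, on which the heavy chain locus depends. Kept were barcodes with at least 500 UMIs, 200 genes and at most 10% mitochondrial UMIs, without doublets called by Scrublet (scanpy 1.11.5; 4.74%).

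Plasma cells had at least 10 Jchain and 0 Siglech UMIs. Other B-lineage cells had at least 2 Cd79a and Cd79b UMIs. Among these, pro-B and large pre-B cells had at least 2 Igll1 and Vpreb1 UMIs and under 2 of Ighd, and mature B cells at least 2 Ighd UMIs. Small pre-B cells had at least 1 Rag1 or Il2ra UMI, and immature B cells none and at least 1 Ms4a1 UMI. Non-B cells had 0 UMIs of Cd79a, Cd79b, Ms4a1, Ighd, Igll1 and Vpreb1. Another 1028 kept cells met none of these rules and held 4 Ighv UMIs. Neutrophil-rich cells had at least 5% of UMIs from Ngp, Camp, Ltf, S100a8 and S100a9, and erythroid cells at least 20% from haemoglobin genes.

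A dominant gene holds more than 0.5 of at least 2 Ighv UMIs. Named genes are the 10 with the most UMIs, the leading dominant genes of each class, the genes of the 10 plasma cells with the most Ighv UMIs, and Ighv5-2, Ighv5-6, Ighv1-26, Ighv6-3, Ighv11-2 and Ighv12-3. Members, gates and lists were chosen with earlier results of these data known. Intervals are exact Clopper-Pearson or Poisson intervals. The size rule was tested on simulated data: it found all genes given a change, but in the small plasma class it also called many unchanged genes of low counts. Intervals used scipy 1.17.1, tables pandas 2.3.3 on Python 3.11.15, and plots matplotlib 3.10.9. Alternatives are other limits, gates, depths and gene sets.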

Additional observations from a re-analysis of the deposited data

Results flagged for a closer look

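The comparisons leave out 4007 barcodes that failed the filters, and these held 55 Ighv UMIs in 52 barcodes, more than the 3 counts that a count of 0 allows. Of these, 54 UMIs lay in the 2672 barcodes over the mitochondrial limit and 1 in the 1335 with few genes. Among 1834 B-lineage barcodes over the limit, plasma cells left out, 47 had an Ighv UMI (2.56%, interval 1.89% to 3.39%; median depth 2420 UMIs). The share in the kept B-lineage cells was 3.42% (interval 2.88% to 4.03%; median depth 3565 UMIs). The 5 barcodes over the limit with plasma-level Jchain held 2 Ighv UMIs. Of the 79 members, 11 had no UMI in kept cells and were counted in left-out barcodes or doublets only.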

How the results depend on the processing

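Of 209 values under other settings, 101 rest on exactly the counts of the reported value and say nothing of stability, and a further 18 belong to results from under 10 cells. Of the other 90, 10 moved beyond the interval of the reported value or, for counts of genes, by more than 1.5 times. With plasma cells left out of the comparison, the pathway genes that were lower numbered 5 in pro-B and large pre-B, 3 in small pre-B, 4 in immature and 3 in mature B cells. Without the 10 members with the most plasma UMIs, 50% of plasma cells had an Ighv UMI. The plasma level was 988 CPM with immunoglobulin genes left out of the total. Thinned to 2000 UMIs, the share of cells with an Ighv UMI was 57.1% in plasma, 2.64% in immature, 2.07% in mature and 1.43% in small pre-B cells. In pro-B and large pre-B cells it was 0.891%, and 0.521% at 500 UMIs, both inside the interval. The 18 values set aside include dominant shares that moved, from 1 cell each. Without the same 10 members the dominant share of pro-B and large pre-B cells rose to 100%. With at least 3 Ighv UMIs required, it was 100% in pro-B and large pre-B and in small pre-B cells. At the limit of 5% mitochondrial UMIs it was 0% in small pre-B cells. Settings chosen after seeing the data (at least 1 Ighv UMI for the family shares, B-class cells rich in other blood RNA left out, the plasma cell with the most S100a8 UMIs left out) moved no share outside its interval. No paired analysis was possible because the records form 1 group pooled in 1 matrix, and no record could be left out. Depth limits every statement on dominance before the plasma stage.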
